A study of Mus musculus with 33 samples.

Results

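The genes described here are 10 Eph receptor genes of the mouse, Epha3, Epha4, Epha5, Epha6, Epha7, Epha8, Ephb1, Ephb2, Ephb3 and Ephb6, taken as their RefSeq gene bodies on GRCm38. They are 10 of the 20540 protein-coding genes that lie within the mapped span of chromosomes 1 to 19, and all 10 were found there. The study mapped the histone mark H3K9me2 and the lamina protein Lamin B1 by CUT&RUN, which cuts out the DNA bound by an antibody, in 3 sources. Forebrain (right lobes) and whole heart came from E11.5 embryos of wild-type C57BL6J dams (genotype C57BL/6), pooled by litter and dissociated with papain, and the mouse embryonic stem (mES) cells are 1 C57BL/6 line, dissociated with TrypLE. That line was started on feeder fibroblasts and then kept in serum medium with LIF and the inhibitors PD0325901 and CHIR99021. Each source has 3 libraries for H3K9me2 and 3 for Lamin B1, from 3 pooled litters or 3 culture vessels. With the IgG controls (6 libraries per tissue and 3 for the stem cells) this makes 33 libraries in 9 groups.

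Eph receptors are receptor tyrosine kinases that bind ephrins on the surface of a neighbouring cell, so that signals pass into both cells at a contact. EphA receptors mainly bind ephrin-As, which are held in the membrane by a lipid anchor, and EphB receptors mainly bind ephrin-Bs, which span it. In the developing brain they steer axons, set up topographic maps and keep cell groups apart, and in the heart and vessels they act in valve and endothelial development. H3K9me2 is a mark of silent chromatin, and the lamina-associated domains (LADs) are where chromosomes contact the lamina under the nuclear envelope.

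The values below come from 9 lists of domains, 3 per source, which name stretches of the genome LAD, KOD or open in bins of 10 kb. KOD is the submitters' label and is not spelled out in the sources used here. Bins that stood in none of the 3 lists of a source are called no list. Each list pools the replicate libraries and carries no score, so there is 1 map per source, the depth behind a domain is unknown, no value has a replicate error, and no difference between sources could be tested. The lists are bulk maps, so a domain in forebrain or heart is the state over a mixture of cell types, and expression was not measured. A gene was given the state with the largest share of its body.

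By this measure the LAD genes of the set were all EphA genes, and no EphB gene was LAD in any source. Epha4 and Epha8 were not LAD in any source either, nor were the EphA genes outside the set, Epha1, Epha2 and Epha10. With so few genes the classes cannot be told apart. LAD was the state of 3 of the 10 genes in forebrain (Epha3, Epha5, Epha6), 2 in heart (Epha5, Epha6) and 4 in mES cells (those 3 and Epha7). Over all protein-coding genes 16.6%, 14.3% and 16.6% were LAD in forebrain, heart and mES cells, and over the 2312 genes of at least 100 kb 24.4%, 19.9% and 24.9%. The length of these genes matters for that reading, since 7 of the 10 are at least 100 kb long and their median length is 172 kb, against 17.6 kb for all genes. KOD was the state of 2 genes in forebrain (19% of all genes and 17.3% of those of at least 100 kb), 3 in heart (17.9% and 21.9%) and 4 in mES cells (13% and 22.5%). Open was the state of 4 genes in forebrain and 3 in heart, where it was that of 57.7% and 58.4% of all genes and of 47.7% and 46.3% of those of at least 100 kb. In mES cells Epha4 was the 1 open gene of the 10, while 63.9% of all genes and 43.3% of those of at least 100 kb were open. No list was the largest share of 1 gene in forebrain (6.65% of all genes, 10.7% of those of at least 100 kb), 2 in heart (9.44% and 11.9%) and 1 in mES cells (6.48% and 9.21%). Counted by bases, LADs took up 54.9% of the 2640 kb of the 10 bodies in forebrain and 49.2% in heart, and 63.2% in mES cells, against 34.8%, 30.3% and 37.0% of the bases of genes of at least 100 kb. Over all protein-coding genes LADs took up 24.9%, 21.1% and 25.7% of the bases, in the same order of sources. In forebrain and heart the higher share than in long genes rests on Epha6, which alone makes up 969 kb. Without it LADs took up 29.8% of the other 9 bodies in forebrain and 22.6% in heart. Both values lie below the share in long genes and above that in all genes. In mES cells the share without Epha6 was 44.1%, still above that in long genes and in all genes.

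**Figure D1:**
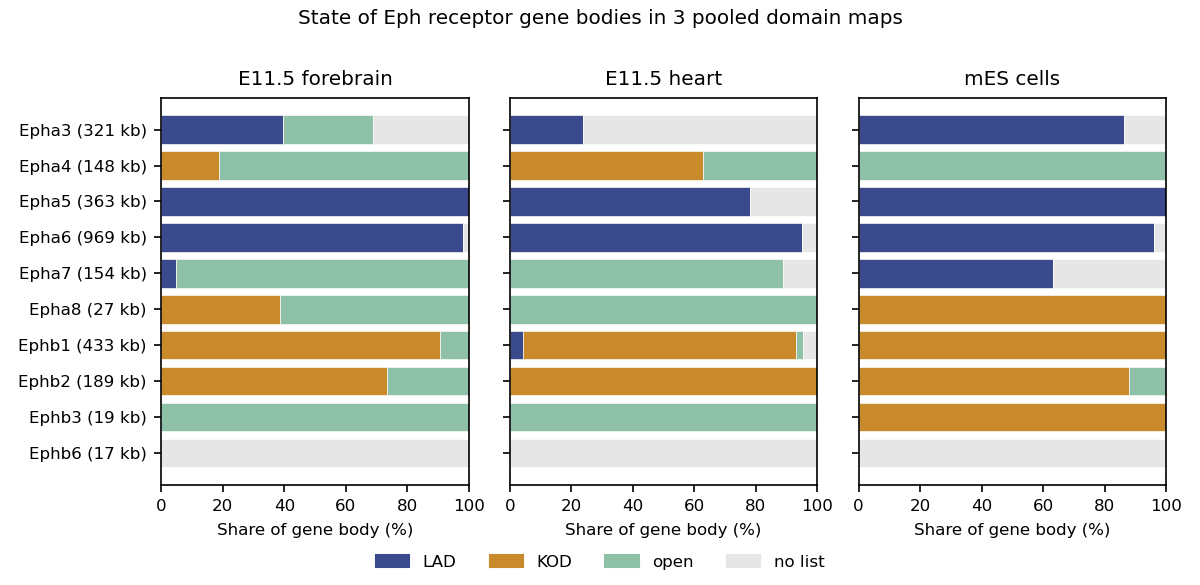
Share of each Eph receptor gene body (percent of its bases, x axis) in LAD, KOD, open and no list, for E11.5 forebrain, E11.5 heart and mES cells, with 1 pooled map per source and no error. Epha5 and Epha6 are mostly LAD in each panel, Ephb1 and Ephb2 mostly KOD, Epha7 is 95.1% open in forebrain, 88.7% open in heart and 63.1% LAD in mES cells, and Ephb6 is in no list throughout.

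Epha5 and Epha6, receptors of ephrin-As that act in topographic mapping in the brain, were LAD in all 3 sources, a pattern held by 10.9% of all genes and 14.0% of those of at least 100 kb. Epha5 (chromosome 5, 84054761 to 84417818, minus strand, 363 kb) was LAD over 100% of its body in forebrain and 78.0% in heart, and 100% in mES cells, and over 100% of the 100 kb on each side in every source. In forebrain it lay inside a single LAD of 4640 kb (81360001 to 86000000), and in mES cells inside one of 2380 kb (83580001 to 85960000). In heart 4 separate LADs of 40 to 770 kb touched the body, with 80.0 kb of it in no list between them. Cut into a 5′ and a 3′ portion of 50% of the body each, the gene was LAD over 94.5% of the 5′ portion in heart and 61.4% of the 3′ portion, so the gaps lay mainly toward the 3′ end.

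Epha6 (chromosome 16, 59641433 to 60610911, minus strand, 969 kb) was LAD over 98.1% in forebrain and 95.0% in heart, and 96.0% in mES cells. Its LAD ran from 59660001 to 62730000 in forebrain and from 59680001 to 62730000 in mES cells, and in heart there were 2 LADs of 870 and 560 kb. The border of the LAD thus fell inside the last part of the gene in all 3 maps, with 18.6 kb of the body past it in no list in forebrain, 38.6 kb in heart and 38.6 kb in mES cells. Heart had a further gap of 10 kb between its 2 LADs, toward the 5′ end. The 100 kb upstream was wholly LAD in each source. The 100 kb downstream held no LAD: it was in no list over 100% in forebrain, open over 88.6% in heart, and open over 10.0% and in no list over 90.0% in mES cells. The downstream neighbours Crybg3 and Arl6, a ciliary GTPase gene, were in no list in forebrain and mES cells and open in heart.

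Epha3 and Epha7 were LAD in mES cells with a stretch in no list around the start of transcription, and the start itself was open in forebrain for both and in heart for Epha7. Epha3, a receptor of ephrin-As that also acts in heart valve formation in the mouse (chromosome 16, 63543532 to 63864175, minus strand, 321 kb), was LAD over 39.4% of its body in forebrain and 23.8% in heart, and 86.2% in mES cells. In forebrain 29.4% of it was open and 31.2% in no list, and in heart 76.2% was in no list. An open domain of 110 kb in forebrain (63770001 to 63880000) reached from 15.8 kb upstream of the start to 94.2 kb into the gene, and the rest of the body held 5 short LADs of 10 to 60 kb with gaps between them. At the same start mES cells had 60 kb in no list, followed by a LAD of 890 kb over the rest of the gene, and heart had 290 kb in no list. The 5′ portion of Epha3 was open over 58.7% in forebrain, and the 3′ portion held no open bases there. LADs covered 84.2% of the upstream flank in forebrain and 54.2% in heart, and 84.2% in mES cells, and 80.0%, 53.5% and 100% of the downstream flank, in the same order of sources. LAD in forebrain and mES cells with no list in heart was the pattern of 1.74% of all genes and 3.68% of those of at least 100 kb. The LAD call in forebrain rests on 39.4% of the body, and the bin at the middle of the gene is in no list there.

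Epha7, which acts in neural tube closure and in the cerebral cortex (chromosome 4, 28813066 to 28967503, plus strand, 154 kb), was open over 95.1% of its body in forebrain and 88.7% in heart, and LAD over 63.1% in mES cells with the other 36.9% in no list. The open domain spanned 180 kb in forebrain (28780001 to 28960000), and in heart 170 kb (28770001 to 28940000) plus 1 bin. In mES cells the stretch in no list was 110 kb long, from 53.1 kb upstream of the start to 56.9 kb into the gene, and a LAD of 2720 kb began at 28870001. In forebrain a LAD of 2430 kb began at 28960001, so that 4.86% of the body, its 3′ end, was LAD there. The downstream flank was LAD over 100% in forebrain and 47.5% in heart, and 100% in mES cells. The upstream flank was LAD over 56.9%, 36.9% and 46.9% and open over 33.1%, 43.1% and 0%, in the same order. The open stretch was thus bounded by LADs within 100 kb on both sides in both tissues. Open in forebrain and heart and LAD in mES cells was the pattern of 179 genes, or 0.871% of all protein-coding genes, and of 0.476% of those of at least 100 kb.

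**Figure D2:**
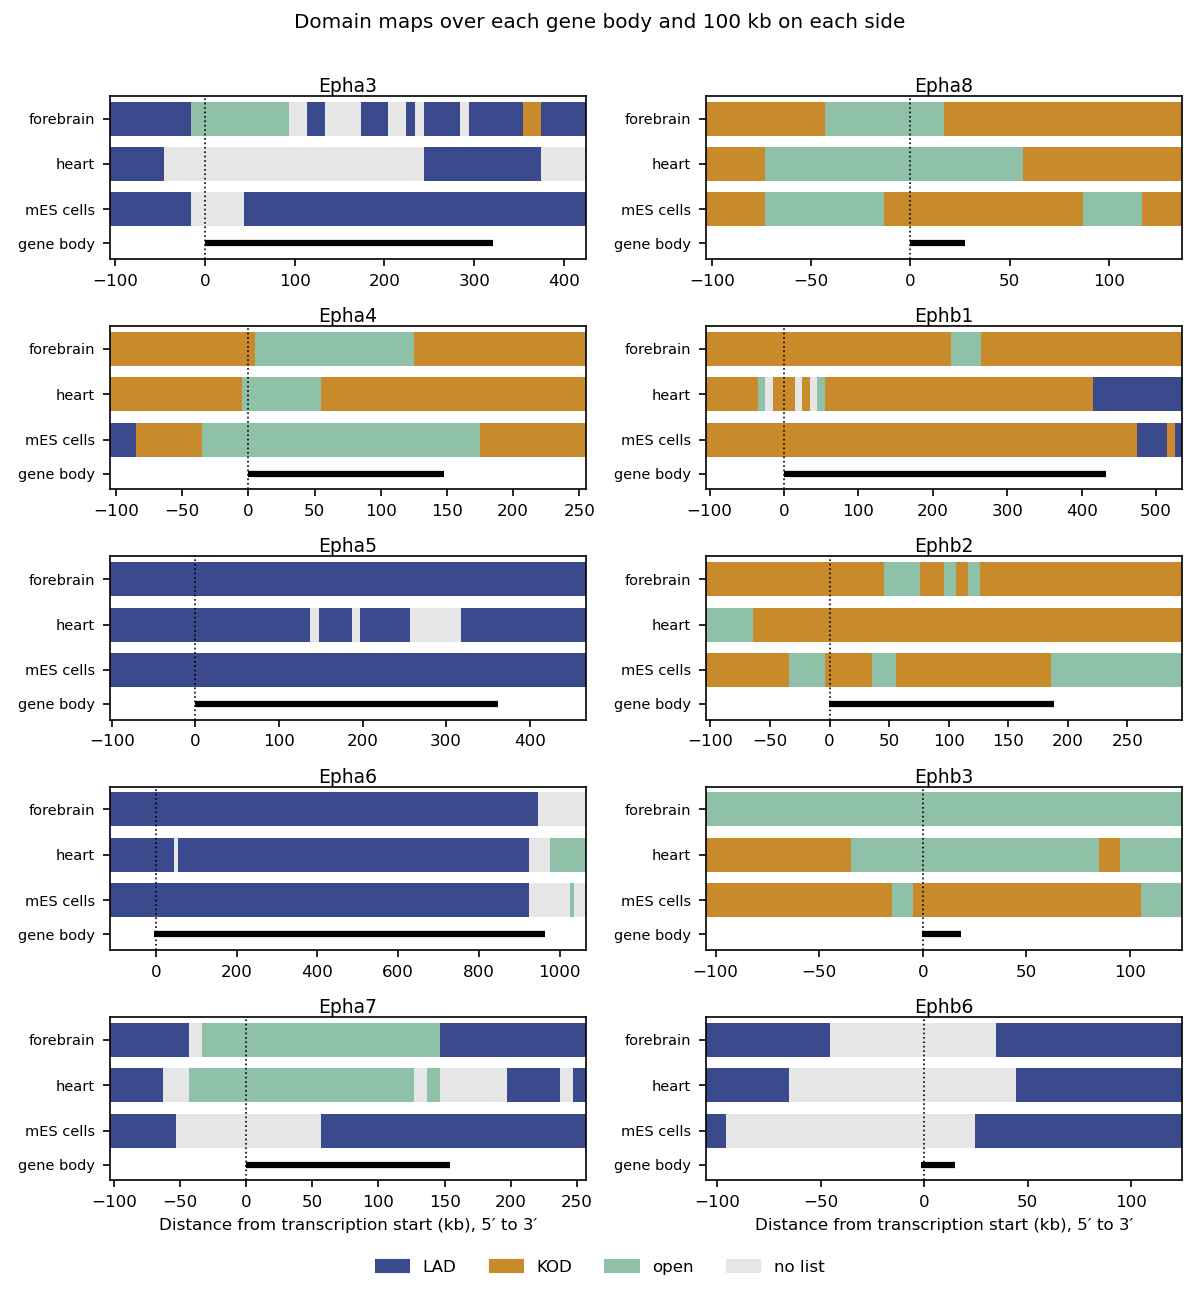
Domain maps of the 10 genes, with the distance from the start of transcription (kb, 5′ to 3′) on the x axis and 1 strip each for forebrain, heart and mES cells over the body and 100 kb on each side. The black bar is the gene body and the dotted line the start of transcription. At Epha3 and Epha7 the start lies in an open block in forebrain (110 and 180 kb) and in a stretch in no list in mES cells (60 and 110 kb), with LADs on both sides.

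Epha4 and Epha8 lay among KODs and open domains, with no LAD in the body. Epha4, which binds ephrins of both classes and acts in the wiring of motor and forebrain tracts (chromosome 1, 77367182 to 77515107, minus strand, 148 kb), was open over 81.1% in forebrain and 37.3% in heart, and 100% in mES cells, and KOD over the rest. Its open domain measured 120 kb in forebrain, 60 kb in heart and 210 kb in mES cells. In heart the open part covered 74.5% of the 5′ portion of the gene and none of the 3′ portion. In forebrain the start of transcription stood in the KOD upstream, 5.09 kb outside the open domain. The upstream flank was KOD over 100% in forebrain and 95.1% in heart, and 50.0% in mES cells, where 15.1% was LAD, and the downstream flank was KOD over 100%, 100% and 72.8%. Open in forebrain and mES cells and KOD in heart was the pattern of 2.93% of all genes and 2.98% of those of at least 100 kb.

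Epha8, which acts in the midbrain visual map of the mouse (chromosome 4, 136929419 to 136956859, minus strand, 27.4 kb), was open over 61.4% in forebrain and 100% in heart and KOD over 100% in mES cells. In forebrain the 5′ portion was wholly open and the 3′ portion KOD over 77.1%. The upstream flank was open over 43.1% in forebrain and 73.1% in heart, and 60.0% in mES cells, and the downstream flank was KOD over 100%, 70.6% and 70.0%. The gene spans 4 bins, so single bins move these shares by large steps.

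Among the EphB genes Ephb1 and Ephb2 were KOD in all 3 sources, a pattern held by 5.93% of all genes and 8.65% of those of at least 100 kb. Ephb1, which sends retinal axons to the same side of the brain (chromosome 9, 101922128 to 102354693, minus strand, 433 kb), was KOD over 90.8% in forebrain and 88.9% in heart, and 100% in mES cells. Forebrain had 1 open domain of 40 kb inside the gene. In heart the body also held 4.13% LAD at its 3′ end, 2.31% open and 4.62% in no list. Its downstream flank differed between the maps. It was KOD over 100% in forebrain, LAD over 100% in heart, and LAD over 47.9% and KOD over 52.1% in mES cells. The upstream flank was KOD over 100%, 80.0% and 100%.

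Ephb2, which guides commissural axons and binds NMDA receptors at synapses (chromosome 4, 136647536 to 136836326, minus strand, 189 kb), was KOD over 73.5% in forebrain and 100% in heart, and 88.1% in mES cells, and open over the rest. In forebrain 6 changes of state fell within the body, against 0 in heart and 3 in mES cells. The downstream flank was KOD over 100% in forebrain and heart and open over 100% in mES cells, and the upstream flank was KOD over 100%, 63.7% and 70.0%. Ephb2 and Epha8 lie 93.1 kb apart, so their flanks overlap and they are not independent observations.

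Ephb3, which acts with Ephb2 in the palate and the corpus callosum of the mouse (chromosome 16, 21204620 to 21223309, plus strand, 18.7 kb), was open over 100% in forebrain and heart and KOD over 100% in mES cells. It lay in an open domain of 620 kb in forebrain, one of 120 kb in heart and a KOD of 110 kb in mES cells. The upstream flank was open over 100%, 34.6% and 10.0% in forebrain, heart and mES cells, and the downstream flank over 100%, 90.0% and 13.3%. Open in both tissues and KOD in mES cells, the pattern of Ephb3 and Epha8, was that of 3.13% of all genes.

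Ephb6, whose protein lacks kinase activity (chromosome 6, 41603834 to 41620509, plus strand, 16.7 kb), was in no list over 100% of its body in all 3 sources, as were 1.61% of genes by their largest share. The stretch in no list measured 80 kb in forebrain, 110 kb in heart and 120 kb in mES cells. LADs flanked it, over 56.2%, 36.2% and 6.17% of the 100 kb upstream and over 80.5%, 70.5% and 90.5% of the 100 kb downstream. The downstream neighbour Trpv6, a calcium channel gene, was also in no list in each source, while Trpv5, Llcfc1 and Kel were LAD in each. Prss2 on the other side was LAD in forebrain and heart and in no list in mES cells. A bin in no list has no call, so nothing can be said of the state of Ephb6.

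**Figure D3:**
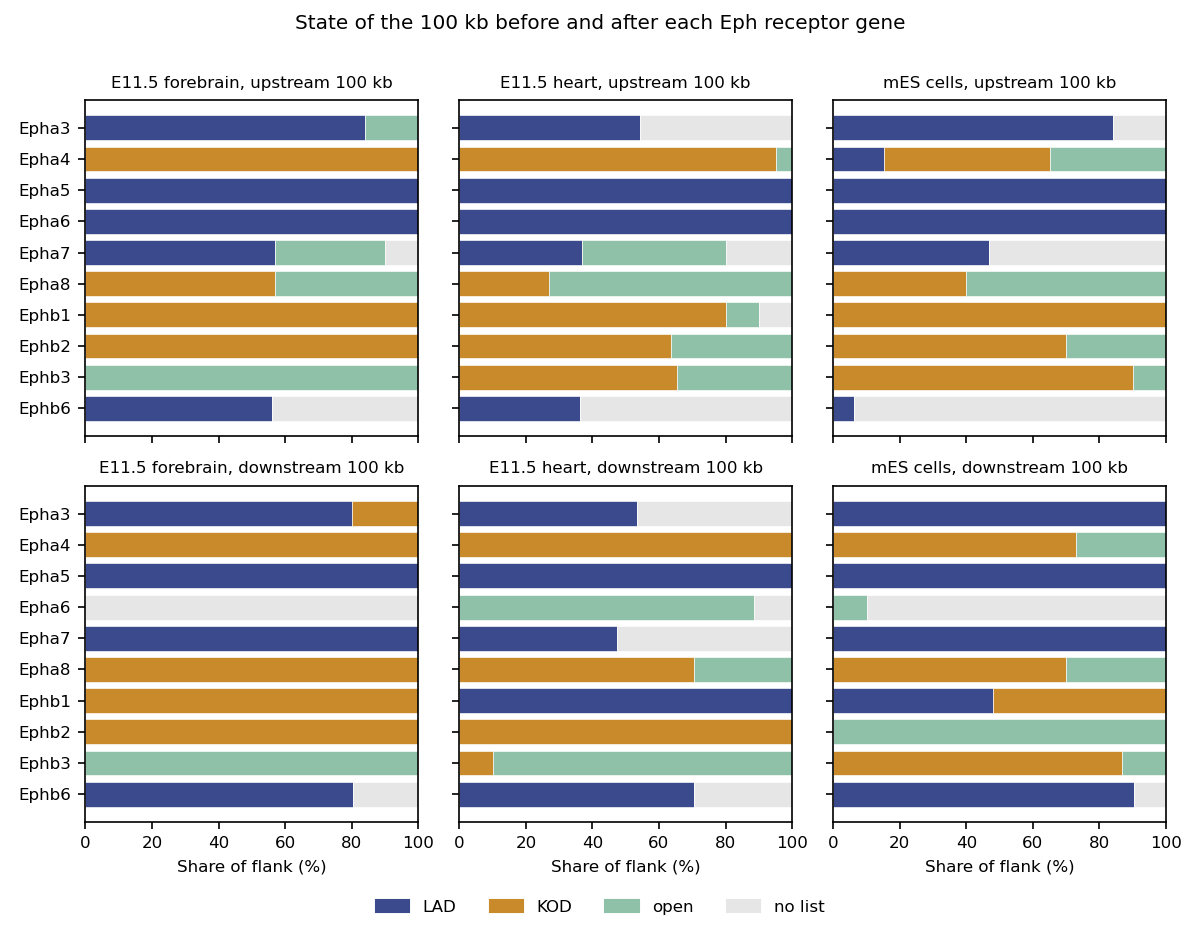
Share of the 100 kb upstream and the 100 kb downstream of each gene (percent of its bases, x axis) in LAD, KOD, open and no list, in forebrain, heart and mES cells. Epha5 is flanked by LADs on both sides in every map, Epha6 on its upstream side, and the downstream flank of Ephb1 is 100% KOD in forebrain, 100% LAD in heart and 47.9% LAD in mES cells.

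Few other protein-coding genes stood within 100 kb of these loci. Epha3, Epha4, Epha7 and Ephb1 had 0 such neighbours, and Epha5 had 1, Gm42163, with the same states. Of the 8 near Ephb2, the complement genes C1qa, C1qb and C1qc were KOD throughout as Ephb2 was. Luzp1, Kdm1a (a histone demethylase), Tex46 and Lactbl1 were KOD in forebrain and heart and open in mES cells. Of the 5 near Epha8, Ephb2, C1qa, C1qb and C1qc were KOD throughout, unlike Epha8, which was open in forebrain and heart. The other, Zbtb40, was KOD in forebrain and open in heart and mES cells. Teddm3 beside Ephb3 was open in forebrain and KOD in heart and mES cells.

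The state at the start of transcription was read separately, from the 10 kb bin that holds it, a reading chosen after the maps had been seen. In forebrain the starts of Epha3, Epha7, Epha8 and Ephb3 were open, in heart those of Epha4, Epha7, Epha8 and Ephb3, and in mES cells that of Epha4. This makes 4, 4 and 1 of 10, while 56.7%, 57.3% and 64.3% of the 16444 protein-coding genes with a promoter in the RefSeq table had an open start in these sources. The starts of Epha5 and Epha6 were LAD in all 3 sources, as were 16.8%, 14.3% and 16.5% of all starts. Those of Ephb1 and Ephb2 were KOD in all 3 (19.7%, 18.4% and 12.1% of all starts), as was that of Epha4 in forebrain and those of Epha8 and Ephb3 in mES cells, which makes 3, 2 and 4 of 10. The start lay in no list for Ephb6 in every source, for Epha3 in heart and mES cells and for Epha7 in mES cells (6.84%, 9.99% and 7.08% of all starts). Of the 4 genes LAD in mES cells by their body, Epha3 and Epha7 had a start outside the LADs. Among all genes of at least 100 kb that were LAD in mES cells 25.1% did, and among all LAD genes of any length 5.6%. In forebrain the start of Epha3 was outside the LADs, as were 18.3% of the starts of long LAD genes and 5.28% of those of all LAD genes. In heart both LAD genes, Epha5 and Epha6, had their start in a LAD, and 31.5% of long LAD genes and 7.29% of all LAD genes did not.

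The promoters shown are those of the 4 genes LAD in mES cells by their body, whose starts in forebrain were either open or LAD. The body of Epha3 was itself LAD in forebrain by its largest share, although its start was open. Each is the 250 bases before the start, 5′ to 3′ on the gene's strand, from RefSeq (GRCm38.p6), in lower case with each CG dinucleotide, the site of DNA methylation, in capitals. Epha7 (chr4:28812881-28813130, plus strand) and Epha3 (chr16:63864176-63864425, minus strand) had starts that were open in forebrain. Epha5 (chr5:84417383-84417632, minus strand) and Epha6 (chr16:60605532-60605781, minus strand) had starts inside LADs in every source. For these 2 genes the start of the promoter table lies inside the RefSeq body, whose 5′ ends are at 84417818 (Epha5) and 60610911 (Epha6). Both stretches are thus within the body, and the sequence before its 5′ end was not examined.
Epha7: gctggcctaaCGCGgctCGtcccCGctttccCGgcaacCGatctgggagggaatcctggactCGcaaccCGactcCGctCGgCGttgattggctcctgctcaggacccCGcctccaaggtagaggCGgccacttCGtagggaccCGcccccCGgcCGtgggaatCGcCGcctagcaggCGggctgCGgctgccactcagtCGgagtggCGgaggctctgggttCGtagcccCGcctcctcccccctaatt
Epha3: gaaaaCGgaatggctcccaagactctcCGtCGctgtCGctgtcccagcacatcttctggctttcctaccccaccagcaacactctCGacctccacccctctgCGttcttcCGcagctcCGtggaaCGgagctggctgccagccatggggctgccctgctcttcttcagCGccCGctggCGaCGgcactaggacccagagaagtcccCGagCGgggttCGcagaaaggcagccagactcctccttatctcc
Epha5: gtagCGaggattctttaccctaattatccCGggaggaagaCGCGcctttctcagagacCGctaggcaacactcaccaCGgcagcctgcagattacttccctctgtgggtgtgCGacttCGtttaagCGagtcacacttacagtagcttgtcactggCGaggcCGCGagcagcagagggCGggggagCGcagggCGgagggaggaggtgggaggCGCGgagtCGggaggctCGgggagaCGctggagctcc
Epha6: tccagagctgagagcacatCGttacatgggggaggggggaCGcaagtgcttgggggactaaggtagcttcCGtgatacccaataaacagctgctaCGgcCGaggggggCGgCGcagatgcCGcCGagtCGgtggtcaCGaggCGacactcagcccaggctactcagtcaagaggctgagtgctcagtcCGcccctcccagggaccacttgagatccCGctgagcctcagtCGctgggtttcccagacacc
These 4 stretches held 25, 16, 20 and 15 CG dinucleotides, so the pair inside the LADs was not poor in them. In the window of 300 bases that adds the 50 bases after the start, Epha5 had 30 and Epha6 15. The median was 2 over promoters whose start was LAD, in each of forebrain, heart and mES cells, and 14 over all promoters. The other members had 14 (Ephb1) to 56 (Epha8) in that window, and their GC content ran from 55.7% in Ephb1 to 84.3% in Epha8, against a median of 56.7% for all promoters. On either strand of the same window, CCAAT was found in 6 of 10 members and 39.1% of all promoters, GGGCGG in 7 and 47.4%, and TATAAA in 0 and 13.5%.

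Between sources, the state of the body differed between forebrain and mES cells for Epha7, Epha8 and Ephb3, which is 3 of 10 (28.6% of all genes and 34.4% of those of at least 100 kb). It differed between heart and mES cells for these 3, Epha3 and Epha4, or 5 of 10 (26.4% and 34.4%). Between forebrain and heart it differed for Epha3, LAD in forebrain and in no list in heart, and Epha4, open in forebrain and KOD in heart, or 2 of 10 (22.8% and 30.6%). Both comparisons with mES cells use the same mES map. The counts of 3 and 2 of 10 are near the shares over all genes, and the 5 of 10 in heart, which was higher, could not be tested and includes Epha3, in no list in heart. Among members listed in both maps, 3 of 9 differed between forebrain and mES cells, 4 of 8 between heart and mES cells and 1 of 8 between forebrain and heart. Over all genes listed in both maps these shares were 22.6%, 19.6% and 15.2%, and over those of at least 100 kb 26.0%, 25.5% and 20.2%. By direction, Epha7 was open in forebrain and LAD in mES cells (1.43% of all genes), and Epha8 and Ephb3 were open in forebrain and KOD in mES cells (5.45%). In heart Epha7 was open and LAD in mES cells (1.68%), Epha8 and Ephb3 were open and KOD in mES cells (3.89%), Epha4 was KOD and open in mES cells (9.59%), and Epha3 was in no list and LAD in mES cells (2.85%). Open in forebrain and KOD in heart, as Epha4 was, held for 4.78% of all genes, and LAD in forebrain and no list in heart, as Epha3 was, for 3.09%.

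Counted by bins, 182 of the 274 bins that touch the 10 bodies had the same listed state in all 3 sources, or 66.4%, against 55.3% of the 112142 bins that touch any protein-coding gene. Without Epha6 it was 89 of 176, or 50.6%, which is below the share over all genes. Epha6 contributed 93 of the 182, Ephb1 35 and Epha5 29, and Epha7, Epha8, Ephb3 and Ephb6 none. Of bins listed in both maps, 13.4% differed between forebrain and mES cells, 13.9% between heart and mES cells and 9.65% between forebrain and heart, against 23.1%, 21.4% and 17.1% over all genes. Without Epha6, none of whose listed bins differed, these shares were 21.7%, 23.8% and 16.3%, so the lower shares of the 10 genes together rest on that gene. At Epha7 it was 9 of 10 such bins between forebrain and mES cells and 8 of 8 between heart and mES cells, and 0 of 14 between forebrain and heart. At Epha4 it was 4 of 16, 10 of 16 and 8 of 16 in the same order.

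Open was the state of 57.7%, 58.4% and 63.9% of all protein-coding genes in forebrain, heart and mES cells, against which the rest of the Eph and ephrin system is to be read. The 4 other receptor genes, Epha1, Epha2 (an epithelial receptor), Epha10 and Ephb4 (the receptor of venous endothelium), are 14.8 to 36.3 kb long and were open in all 3 sources, with Epha10 KOD over 49.1% and open over 50.9% in forebrain. Of the 7 ephrin genes on these chromosomes none was LAD in any source by its largest share. Efna2, Efna3, Efna4 and Efnb2, the ligand of Ephb4 on arterial endothelium, were open over 100% in each source. Efna5, a ligand of several EphA receptors and the longest ephrin gene at 278 kb, was open over 100% in forebrain and heart, and in no list over 58.0% and LAD over 42.0% in mES cells. Efna1 was KOD in forebrain and open in heart and mES cells, and Efnb3, an ephrin-B of the nervous system midline, was KOD in forebrain and heart and open in mES cells. Efnb1 lies outside the chromosomes covered and was not analysed here.

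Of 29 genes that act in Eph and ephrin signalling, 19 were open in forebrain and 19 in heart, and 22 in mES cells, and 17 had 1 state in all 3. These are 65.5%, 65.5% and 75.9% open, against 57.7%, 58.4% and 63.9% of all genes. Of genes of at least 100 kb 47.7%, 46.3% and 43.3% were open. The median length of the signalling genes is 101 kb, against 17.6 kb for all genes, and no difference in these shares was tested. Of all genes 62.4% had 1 state in all 3. By bases the signalling genes were 44.3% KOD and 43.0% open in heart. Over all genes 19.2% of the bases were KOD and 46.9% open there, and over genes of at least 100 kb 20.2% and 34.9%. The KOD share of the signalling genes was 19.04% in forebrain and 35.1% in mES cells, against 17.6% and 18.02% over all genes. Much of their KOD in heart lay in Grip1 (634 kb, 85.2% KOD) and Kalrn (604 kb, 100% KOD). The share without these genes was not computed. Ngef, which encodes the exchange factor ephexin that EphA4 binds, and Kalrn, a Rac exchange factor downstream of EphB receptors, were KOD throughout. They were the only ones of the 29 and were named after their values were seen. This pattern was held by 5.93% of all genes and 8.65% of those of at least 100 kb. The 12 genes whose state differed were of several kinds. The metalloprotease gene Adam10, the GTPase gene Cdc42 and the PDZ protein gene Pick1 were KOD in forebrain and heart and open in mES cells. The adaptor gene Nck1, the kinase gene Src and the GTPase gene Rhoa were KOD in forebrain and open in heart and mES cells. Vav2, a guanine nucleotide exchange factor, and Grip1, a PDZ protein, were open in forebrain and KOD in heart and mES cells, and Sipa1l1, a Rap GTPase activating protein, was KOD in heart and open in forebrain and mES cells. Vav3, a relative of Vav2, had the states of Epha3, with LAD over 79.9% in forebrain, no list over 98.4% in heart and LAD over 100% in mES cells. Rasa1 was open in forebrain and heart and in no list in mES cells, and the phosphatase gene Ptpro was in no list in forebrain and heart and KOD in mES cells.

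**Figure D4:**
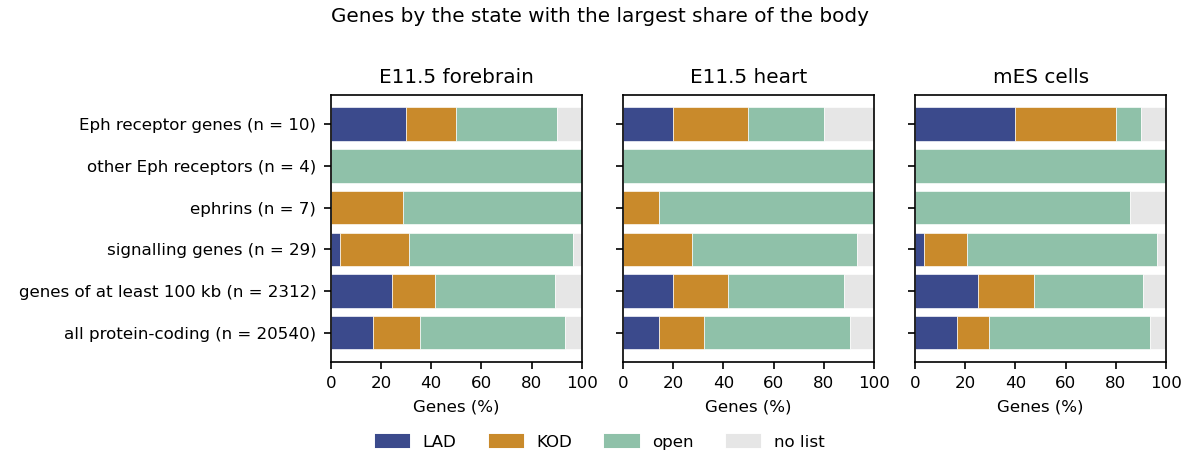
Share of genes (percent, x axis) by the state with the largest share of the body, in forebrain, heart and mES cells, for the 10 Eph receptor genes, the 4 other Eph receptors, 7 ephrins, 29 signalling genes, protein-coding genes of at least 100 kb (n = 2312) and all protein-coding genes (n = 20540). The 10 genes have 4, 3 and 1 open members in the 3 maps, and the 4 other receptors are open in each.

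For the 5 members whose state differed between sources, the genes of at least 50 kb on other chromosomes with the most similar set of 12 shares were looked up. The measure is the sum of absolute differences in percentage points, 0 for equal shares and 600 at most. Nearest to Epha7 were Gm2959 (43.3 points), Gm8104 (53.2) and the fibrillin gene Fbn2 (66.5), all open in forebrain and heart and LAD in mES cells. Nearest to Epha3 were Foxp2, a transcription factor gene of the brain (72.7), Cntln (85.1) and the BMP receptor gene Bmpr1b (88.1), so no gene was close to it. Nearest to Epha4 were Kif27 (12.2), Ranbp9 (18.2) and Uimc1 (24.3), all on chromosome 13, and nearest to Epha8 were Map1b, a neuronal microtubule protein gene (20.8), Siah3 (31.1) and Zbtb7c (36.6). For Ephb3, wholly open in both tissues and wholly KOD in mES cells, 33 genes had exactly the same shares. These ties were broken by length, which named Crmp1, a gene of axon guidance signalling, 4930590J08Rik and 6430548M08Rik. Those genes are 50.1 to 51.2 kb long against 18.7 kb for Ephb3, since genes under 50 kb were not compared. Between 4342 and 4525 genes were compared for each member, across 3 maps.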

How the data were processed

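CUT&RUN libraries for H3K9me2, Lamin B1 and IgG were made from forebrain and heart of E11.5 embryos and from mES cells. The build was mm10 and the tools were deepTools, Picard, Bowtie2 2.5.0, cutadapt 4.2 and Trim Galore, per the submitters' processing notes. The method of domain calling was not given in the sources used here. The authors deposited 9 lists of domain coordinates in whole bins of 10 kb, without scores, each pooling the replicates of a source. The 3 lists of a source shared 0 bins.

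Lists were painted in 10 kb bins and intersected by base with RefSeq gene bodies of GRCm38.p6, the assembly behind mm10, with Python 3.11.15, numpy 2.4.6 and pandas 2.3.3, and figures were drawn with matplotlib 3.10.9. The computation of shares was tested on simulated data. Strand and start of transcription came from the RefSeq promoter table, which matched all 10 members, taking the most upstream start in it. For several members, among them Epha5, Epha6, Ephb2 and Ephb6, that start lay inside the RefSeq body and not at its 5′ end. Genes outside the mapped span were left out. No statistical test was possible with 1 map per source. The members and gene lists were chosen with earlier results of these data known. Genes named beyond the members are the other Eph and ephrin genes, signalling genes that differ in state, neighbours within 100 kb (by name where their state differs from the member's) and the 3 genes most similar in their shares to each member that differs in state. Ngef, Kalrn, C1qa, C1qb, C1qc, Gm42163 and Trpv6 were named after their values were seen.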

Additional observations from a re-analysis of the deposited data

How the results depend on the processing

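The calls of the 10 genes in 3 sources (30 calls) were recomputed under 5 planned settings and 1 chosen after the data were seen. No paired analysis was possible because each list pools its replicates, and for the same reason no replicate could be left out. With the state at the middle of the body 29 calls were kept. Epha3 in forebrain was then in no list, which made 2 genes in no list there and 1 gene different between forebrain and heart. With 20 kb trimmed from domain ends 24 calls were kept, and the 6 lost went to no list (Epha3, Epha8 and Ephb2 in forebrain, Epha5 in heart, Ephb2 and Ephb3 in mES cells). That setting gave 4 genes in no list and 1 KOD in forebrain, 1 LAD in heart, and 3 in no list and 2 KOD in mES cells. With it 4 genes differed between forebrain and heart (2 in the main setting) and 7 between heart and mES cells (5 in the main setting). Between forebrain and mES cells 4 genes differed with it, against 3 in the main setting. That count was also 4 with the middle of the body, without domains under 100 kb and with the minimum of 50%. Trimming 20 kb from each end removes any domain of at most 40 kb. Without domains under 100 kb 28 calls were kept, and Epha3 and Epha8 made 3 genes in no list in forebrain. Over listed bases alone Epha3 was LAD in heart, which left 1 gene in no list there, and with a minimum of 50% Epha3 had no state in forebrain. At the start of transcription 25 calls were kept, with 3 genes in no list and 2 LAD in mES cells, and 5 and 3 genes different from mES cells in forebrain and in heart. Epha6, Ephb1 and Ephb6 kept their calls in all 6 settings. Leaving out Epha6 was also chosen after the data were seen. It turned the shares of LAD bases in forebrain and heart from above to below those in genes of at least 100 kb. These shares stayed above those in all genes, and the LAD share in mES cells stayed above both backgrounds. The share of unchanged bins turned from above to below that over all genes. The share of bins differing between heart and mES cells turned from below to above that over all genes. Of 240 flank shares 63 moved by at least 10 percentage points with 50 kb on each side and 59 with 200 kb. The depth behind each list is unknown, so no counting error can be given.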
